A study of Mus musculus with 16 samples.

Results

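The genes Slc4a1, Aqp6, Dmrt2, Adgrf5 and Kit mark the type A intercalated cell of the renal collecting duct and were followed across the 4 groups of the study. They were listed by name as markers of this cell type, with earlier results of these data known, and make 5 of the 13430 genes in the deposited table; 5 of 5 passed the filter on low values and were tested. The 16 libraries came 1 each from 16 female mice, labelled C57BL/6 and aged 2 to 3 months, and were made from a slice of 3 mm across the middle of the kidney after a fast of 12 h. Their genotype was wild type or IRR(-/-), in which Insrr is knocked out. Insrr encodes the insulin receptor-related receptor, a receptor tyrosine kinase that responds to alkaline fluid. For 7 days they drank water or water with 250 mM NaHCO3 at pH 8.5. This gave 4 animals each of wild type on water, wild type on bicarbonate, knockout on water and knockout on bicarbonate. The comparisons ask how the kidney transcriptome answers an alkali load with and without the receptor. The part of Insrr removed, the origin of the wild-type animals and any processing batch are not given in the sources used here, so genotype and anything that differed with it cannot be told apart.

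Intercalated cells set the acid and base content of the urine. The type A cell pumps protons into the urine through a vacuolar ATPase in its apical membrane and returns bicarbonate to the blood through the anion exchanger AE1, the product of Slc4a1, in its basolateral membrane. The type B cell has the opposite polarity and secretes bicarbonate in exchange for chloride through pendrin, the product of Slc26a4. An acid load is known to favour the activity of type A cells and an alkali load that of type B cells. The whole-kidney slice holds many cell types, so in these values fewer cells of a type and less RNA per cell cannot be told apart.

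Insrr, the gene named in the knockout label, lay at 4.20 to 6.73 RPKM in the 8 wild-type libraries and at 3.31 to 4.11 RPKM in the 8 knockout libraries, lower in the knockout but not absent. RPKM is the number of reads scaled to the length of the gene and the size of the library, as deposited. The depth of each library is unknown. Wild-type and knockout libraries separated on the first principal component, which held 25.4% of the variance. Transcripts encoded in the mitochondrial genome made up 69.6 to 74.2% of a wild-type library's summed RPKM and 82.6 to 84.9% of a knockout library's. Replicate 3 of wild type on bicarbonate stood apart from the other 15 libraries on the second component. Among the wild-type libraries, Slc4a1, Aqp6, Dmrt2 and Adgrf5 were all highest there. Their wild-type responses to bicarbonate are given with and without it, as are the genotype differences of Slc4a1 and Aqp6 on bicarbonate.

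The 5 genes differed in level per length. The mean over the 16 libraries was 24.9 RPKM for Aqp6, 16.0 for Slc4a1, 13.6 for Adgrf5, 6.27 for Kit and 2.34 for Dmrt2. These levels placed Aqp6 at rank 3241 and Dmrt2 at rank 10435 of the 13430 genes, so Dmrt2 was measured nearest to the floor of the table. In 5 of 5 genes the lowest group mean was that of wild type on water. Wherever groups next to each other in the order of means were compared, their ranges overlapped, in all of the 5 genes.

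**Figure D1:**
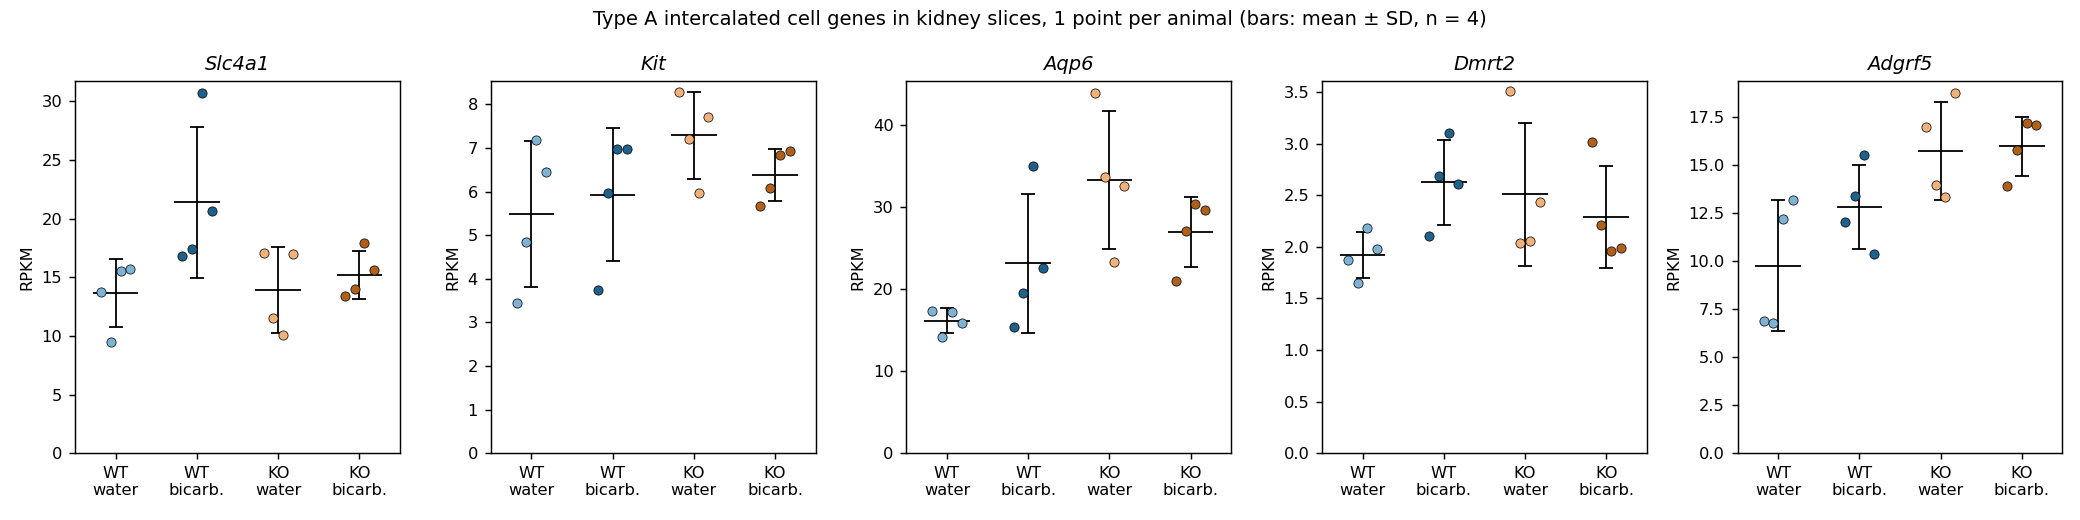
RPKM of each type A gene (1 panel per gene, linear axis) in the 4 groups, 1 point per mouse, with the group mean and SD (n = 4). Aqp6 in wild type on water lies between 14.2 and 17.4 RPKM, below all libraries of knockout on water, while in Kit and Dmrt2 the 4 groups overlap.

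Slc4a1 encodes AE1, the basolateral exchanger through which the type A cell returns bicarbonate to the blood, and also band 3 of the red blood cell membrane. The gene (ENSMUSG00000006574) lies at chr11:102348824-102366203 on the minus strand of GRCm38, the build used for all positions of genes here. It was at 13.8, 9.49, 15.5 and 15.7 RPKM in the 4 mice of wild type on water and at 16.8, 17.4, 30.7 and 20.6 RPKM in wild type on bicarbonate. The lowest wild-type library on bicarbonate was above the highest on water. Knockout mice gave 17.1, 11.5, 10.1 and 16.9 RPKM on water and 13.4, 13.96, 17.9 and 15.7 RPKM on bicarbonate, and these ranges overlapped.

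On the log2(RPKM + 0.1) scale used for every difference, Slc4a1 was 0.63 ± 0.22 (SE, n = 4 and 4) higher on bicarbonate in wild type, with a 95% confidence interval of 0.16 to 1.10. The difference did not pass the threshold (adjusted p = 0.250 by limma). Its unadjusted p by limma was 0.0116. Of all genes tested, 12.0% had an unadjusted p under 0.05 in this comparison and 2.54% had groups that did not overlap with the higher values on bicarbonate. Without replicate 3 of wild type on bicarbonate, the highest library of all 16 for Slc4a1, the difference was 0.44 with an adjusted p of 0.460 by limma. In the knockout the response was 0.16 with an interval of -0.31 to 0.62 (adjusted p = 0.905 by limma).

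Between genotypes on water, Slc4a1 differed by 0.02 with an interval of -0.45 to 0.49 (adjusted p = 0.963 by limma). On bicarbonate the difference of knockout minus wild type was -0.45, with an interval of -0.92 to 0.01 (adjusted p = 0.172 by limma). Without replicate 3 of wild type on bicarbonate it was -0.27 (adjusted p = 0.417 by limma). Red blood cell genes were examined beside this last value, with 9 of 11 in the table and 8 tested. Their summed RPKM ranged from 822 to 1560 in wild type on bicarbonate and from 248 to 627 in knockout on bicarbonate, and their median log2 difference was -1.03 against -0.02 for all genes tested. Of the 8, 6 were below 0 and 2 above. In this comparison 18.4% of all genes passed, and 2 of the 8 did, both lower, the alpha-globin gene Hba-a2, which fell by 1.89 on the log2 scale, and Alas2, the first enzyme of heme synthesis in red cells, which fell by 1.02. The call of Alas2 was lost in 9 of 22 other settings. Of these, 7 left out 1 mouse, any of the 8 but replicate 4 of wild type on bicarbonate, with adjusted p from 0.062 to 0.121 by limma. Across animals, deviations of Slc4a1 from the group means had a Pearson correlation of 0.625 with those of the red blood cell list (adjusted permutation p = 0.114, n = 16). In the responses to bicarbonate, the median of the 8 red blood cell genes was 0.37 in wild type, with 7 above 0. In the knockout it was -0.93, with 3 above 0, where Slc4a1 was at 0.16. For the difference between these responses the median was -1.23, with 2 above 0. Between genotypes on water it was 0.08, with 5 above 0. In each of these comparisons 0 of the 8 passed. The part of red cells in the Slc4a1 values was not tested.

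Aqp6 encodes a water channel family member held in intracellular vesicles of the type A cell beside the proton ATPase, with a known permeability to anions. The gene (ENSMUSG00000043144) lies at chr15:99601400-99605477 on the plus strand. It was at 17.4, 14.2, 17.2 and 15.8 RPKM in wild type on water. In knockout on water it was at 43.9, 33.6, 23.3 and 32.6 RPKM, every library above every wild-type library on water. On bicarbonate the wild-type mice gave 15.3, 19.6, 35.0 and 22.6 RPKM and the knockout mice 21.0, 27.1, 30.3 and 29.6 RPKM, and these 2 groups overlapped.

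Aqp6 rose in the knockout on water from 16.1 ± 1.497 to 33.3 ± 8.42 RPKM (SD, n = 4 in each), a log2 difference of 1.01 ± 0.22 (SE) or 2.01-fold, with an interval of 0.54 to 1.48 and an adjusted p of 0.00434 by limma. Of all genes tested, 10.8% had knockout libraries on water that were all above the wild-type ones. On bicarbonate the genotype difference was 0.27 with an interval of -0.20 to 0.75 (adjusted p = 0.428 by limma), and 0.50 without replicate 3 of wild type on bicarbonate (adjusted p = 0.0903 by limma). The response to bicarbonate was 0.45 in wild type, from -0.02 to 0.93 (adjusted p = 0.442 by limma), and 0.23 without that library (adjusted p = 0.725 by limma). In the knockout the response was -0.28, from -0.75 to 0.19 (adjusted p = 0.802 by limma). The difference between these responses was -0.74 ± 0.31 (SE), which had an unadjusted p of 0.0327 and an adjusted p of 0.588 by limma, so a genotype effect that differs between drinks was not established. Without that library it was -0.51 (adjusted p = 0.723 by limma). The rise on water passed the threshold in 22 of 22 other settings, with log2 differences from 0.87 to 1.17.

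Dmrt2 encodes a transcription factor of the doublesex and mab-3 related family, known among kidney epithelial cells as a marker of type A cells. The gene (ENSMUSG00000048138) lies at chr19:25672411-25678991 on the plus strand. Its values were 1.87, 1.65, 2.18 and 1.98 RPKM on water and 2.10, 2.69, 3.10 and 2.61 RPKM on bicarbonate in wild type, so that 1 library of the bicarbonate group fell inside the range on water. Knockout mice gave 3.51, 2.03, 2.05 and 2.43 RPKM on water and 3.01, 2.21, 1.96 and 1.98 RPKM on bicarbonate, with replicate 1 the highest in each group. No comparison of Dmrt2 passed the threshold. The response to bicarbonate was 0.43 in wild type (unadjusted p = 0.0389 and adjusted p = 0.386 by limma) and -0.11 in the knockout, and the difference between genotypes was 0.34 on water and -0.20 on bicarbonate. With 1 animal left out, the genotype difference on bicarbonate ranged from -0.33 to -0.115.

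Adgrf5 encodes GPR116, an adhesion G protein-coupled receptor that is present in type A cells and is also strong in endothelium and lung epithelium. The gene (ENSMUSG00000056492) lies at chr17:43360451-43459557 on the plus strand. It was at 6.90, 6.80, 12.2 and 13.2 RPKM in wild type on water, a group split between a low and a high pair of mice. The other groups held 12.1, 13.4, 15.6 and 10.4 RPKM in wild type on bicarbonate, 17.0, 13.96, 13.3 and 18.8 RPKM in knockout on water and 13.9, 15.8, 17.2 and 17.1 RPKM in knockout on bicarbonate. The highest wild-type library on water, at 13.17 RPKM, was just under the lowest knockout library on water, at 13.34 RPKM.

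Adgrf5 rose in the knockout on water from 9.78 ± 3.40 to 15.8 ± 2.56 RPKM (SD, n = 4 in each), a log2 difference of 0.74 ± 0.21 (SE) or 1.67-fold, with an interval of 0.30 to 1.17 and an adjusted p of 0.0182 by limma. This call was lost when the fit held only the 8 libraries compared (adjusted p = 0.0652 by limma). It was also lost without wild type on water replicate 1 (0.59, adjusted p = 0.0584 by limma), without wild type on water replicate 2 (0.59, adjusted p = 0.0632 by limma) and without knockout on water replicate 4 (0.65, adjusted p = 0.0544 by limma). On bicarbonate the genotype difference was 0.33 with an interval of -0.11 to 0.76 (adjusted p = 0.299 by limma). With 1 animal left out, that difference ranged from 0.23 to 0.42. The response to bicarbonate was 0.44 in wild type (adjusted p = 0.412 by limma) and 0.03 in the knockout (adjusted p = 0.992 by limma).

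Of the 10 endothelial markers, 10 were in the table, and their summed RPKM ranged from 329 to 367 in wild type on water and from 336 to 370 in knockout on water. The difference between genotypes on water was above 0 in 8 of the 10, with a median of 0.08 against -0.05 for all genes and values from -0.14 for Emcn to 0.51 for Adgrl4. Of the 10, 1 passed on each drink, against 21.9% of all genes on water and 18.4% on bicarbonate. It was Adgrl4, an endothelial receptor of the same adhesion class as Adgrf5, which rose in the knockout by 0.51 on water (adjusted p = 0.0273 by limma) and 0.79 on bicarbonate (adjusted p = 0.00248 by limma). The call on bicarbonate held in 22 of 22 other settings. That on water was lost in 7 of 22, and 4 of these left out replicate 1 or 2 of wild type or replicate 3 or 4 of the knockout (0.39 to 0.49, adjusted p from 0.0647 to 0.084 by limma). Taken relative to the endothelial list, the Adgrf5 difference on water was 0.59 (adjusted p = 0.0246 by limma) and that of Aqp6 was 0.87 (adjusted p = 0.00818 by limma). Relative to the 14 genes shared by intercalated cells, the difference was 0.65 for Adgrf5 (adjusted p = 0.0195 by limma) and 0.92 for Aqp6 (adjusted p = 0.00290 by limma).

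By Pearson correlation, the gene most like Aqp6 over the animals was Atp6v1b1, the subunit of the proton pump typical of intercalated cells. The stretch upstream of Aqp6 and Adgrf5, the members that rose, is shown beside that of Atp6v1b1. Each is the 250 bases before a RefSeq start on the plus strand of GRCm38.p6, at chr15:99600950-99601199 for Aqp6, chr17:43360181-43360430 for Adgrf5 and chr6:83742767-83743016 for Atp6v1b1. Capitals mark a match to GTAAACA or ATAAACA on either strand, forms of the word bound by forkhead factors such as Foxi1, the factor needed to form intercalated cells.
Aqp6: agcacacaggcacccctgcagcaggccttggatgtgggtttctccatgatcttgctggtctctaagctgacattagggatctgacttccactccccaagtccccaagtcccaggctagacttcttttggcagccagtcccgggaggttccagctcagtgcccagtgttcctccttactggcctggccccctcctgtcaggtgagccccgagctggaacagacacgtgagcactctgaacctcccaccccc
Adgrf5: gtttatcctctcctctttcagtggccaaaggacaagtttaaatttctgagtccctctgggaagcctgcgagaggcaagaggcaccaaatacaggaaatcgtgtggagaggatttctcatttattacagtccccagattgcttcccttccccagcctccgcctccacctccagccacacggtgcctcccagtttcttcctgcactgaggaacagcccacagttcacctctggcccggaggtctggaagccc
Atp6v1b1: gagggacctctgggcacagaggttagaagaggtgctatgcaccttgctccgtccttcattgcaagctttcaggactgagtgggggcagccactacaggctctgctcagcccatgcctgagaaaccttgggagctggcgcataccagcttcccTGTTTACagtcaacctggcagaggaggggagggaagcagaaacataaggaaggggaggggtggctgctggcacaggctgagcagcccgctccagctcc
The Atp6v1b1 window held 1 match, which begins 98 bases before the start. The 6 windows found for 4 of the 5 type A genes held 0, and none was used for Slc4a1. Among 32851 promoter windows of this length, 3.17% held GTAAACA, 4.16% held ATAAACA and 7.1% held either word. Foxi1 itself was at 11.4, 16.5, 15.0 and 12.1 RPKM on average in wild type on water, wild type on bicarbonate, knockout on water and knockout on bicarbonate, and passed the threshold in 0 of the 5 comparisons. Without replicate 1 of wild type on bicarbonate its genotype difference on bicarbonate passed (-0.58, adjusted p = 0.0302 by limma).

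Kit encodes the receptor tyrosine kinase for stem cell factor, known in mast cells and blood progenitors and, in the kidney, on type A cells. The gene (ENSMUSG00000005672) lies at chr5:75574916-75656722 on the plus strand. Its values were 3.46, 4.85, 7.18 and 6.45 RPKM on water and 3.75, 5.97, 6.98 and 6.99 RPKM on bicarbonate in wild type. The knockout gave 8.29, 7.20, 5.96 and 7.70 RPKM on water and 5.67, 6.09, 6.83 and 6.93 RPKM on bicarbonate. The lowest values, under 4 RPKM, were those of replicate 1 in each wild-type group, and all 4 groups overlapped. The genotype difference was 0.45 on water, with an interval of -0.02 to 0.92 (adjusted p = 0.168 by limma), and 0.14 on bicarbonate, while the responses to bicarbonate were 0.12 in wild type and -0.18 in the knockout.

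The ligand of Kit passed the test where the receptor did not. Kitl, which encodes stem cell factor, was at 6.14, 5.20, 6.22 and 5.94 RPKM in the wild-type mice on water and at 3.77, 3.78, 3.75 and 4.14 RPKM in knockout on water. It fell by 0.59 on the log2 scale on water (adjusted p = 0.000515 by limma), a call that held in 22 of 22 other settings. On bicarbonate it fell by 0.32 on that scale (adjusted p = 0.0309 by limma). This call was lost in 9 of 22 settings, 5 of which left out replicate 2, 3 or 4 of wild type or replicate 3 or 4 of the knockout (adjusted p from 0.0616 to 0.0947 by limma). Of 8 genes listed for the ligand and signalling of Kit, 7 were tested. Between genotypes 1 rose and 1 fell on water, where 21.9% of all genes passed. On bicarbonate 2 fell, where 18.4% passed. With 7 genes these counts say little beyond the genes named. On water Gab2, a docking protein, rose by 0.37 (adjusted p = 0.0431 by limma). Its call was lost in 10 of 22 settings, 5 of which left out replicate 1 or 2 of wild type or replicate 1, 3 or 4 of the knockout (adjusted p from 0.0754 to 0.128 by limma). On bicarbonate Grb2, an adaptor, fell by 0.35 on the log2 scale (adjusted p = 0.0187 by limma). The Grb2 call was lost in 1 of 22 settings, relative to the genes shared by intercalated cells (adjusted p = 0.0613 by limma). The other members did not pass in these comparisons. In the responses to bicarbonate 0 of the 7 passed, against 0.139% of all genes in wild type and 0.0232% in the knockout. Of 8 mast cell markers only Hdc was in the table, with group means from 4.99 to 7.98 RPKM and no call in any comparison.

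Counted as a group, 0 of the 5 type A genes passed the threshold in the wild-type response to bicarbonate, in which 0.139% of all genes tested passed. Their differences were above 0 in 5 of 5, as they were for 48.6% of all genes, with a median of 0.44 against -0.01 for all genes. Without replicate 3 of wild type on bicarbonate the responses were 0.44 for Slc4a1, 0.23 for Aqp6, 0.34 for Dmrt2, 0.34 for Adgrf5 and 0.03 for Kit. In the knockout response 0 of 5 passed, against 0.0232% of all genes, and the median was -0.11 against 0.01. The genes were listed with earlier results of these data known, and so the signs are no independent support. The difference between the responses was below 0 in 5 of 5, where it was above 0 for 53.4% of all genes, with a median of -0.47 against 0.02, and 0 of 5 passed against 0.0155% of all genes. By gene it was -0.47 for Slc4a1, -0.74 for Aqp6, -0.54 for Dmrt2, -0.41 for Adgrf5 and -0.30 for Kit, with adjusted p from 0.588 to 0.810 by limma. Without the same library it was -0.29 for Slc4a1, -0.51 for Aqp6, -0.46 for Dmrt2, -0.31 for Adgrf5 and -0.21 for Kit. At an unadjusted p under 0.05 it held 1 of the 5, Aqp6, against 8.19% of all genes.

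Between genotypes on water 2 of the 5 passed, Aqp6 and Adgrf5, both higher in the knockout, against 21.9% of all genes that passed in either direction and 10.1% that passed as higher. The median was 0.45 against -0.05 for all genes. With 5 genes the count says little beyond the 2 named. On bicarbonate 0 of 5 passed against 18.4% of all genes, with a median of 0.14 against -0.02. Each response to bicarbonate shares a group with each genotype difference. Wild type on water is the reference both for the wild-type response and for the genotype difference on water, and it held the lowest mean of every member.

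**Figure D2:**
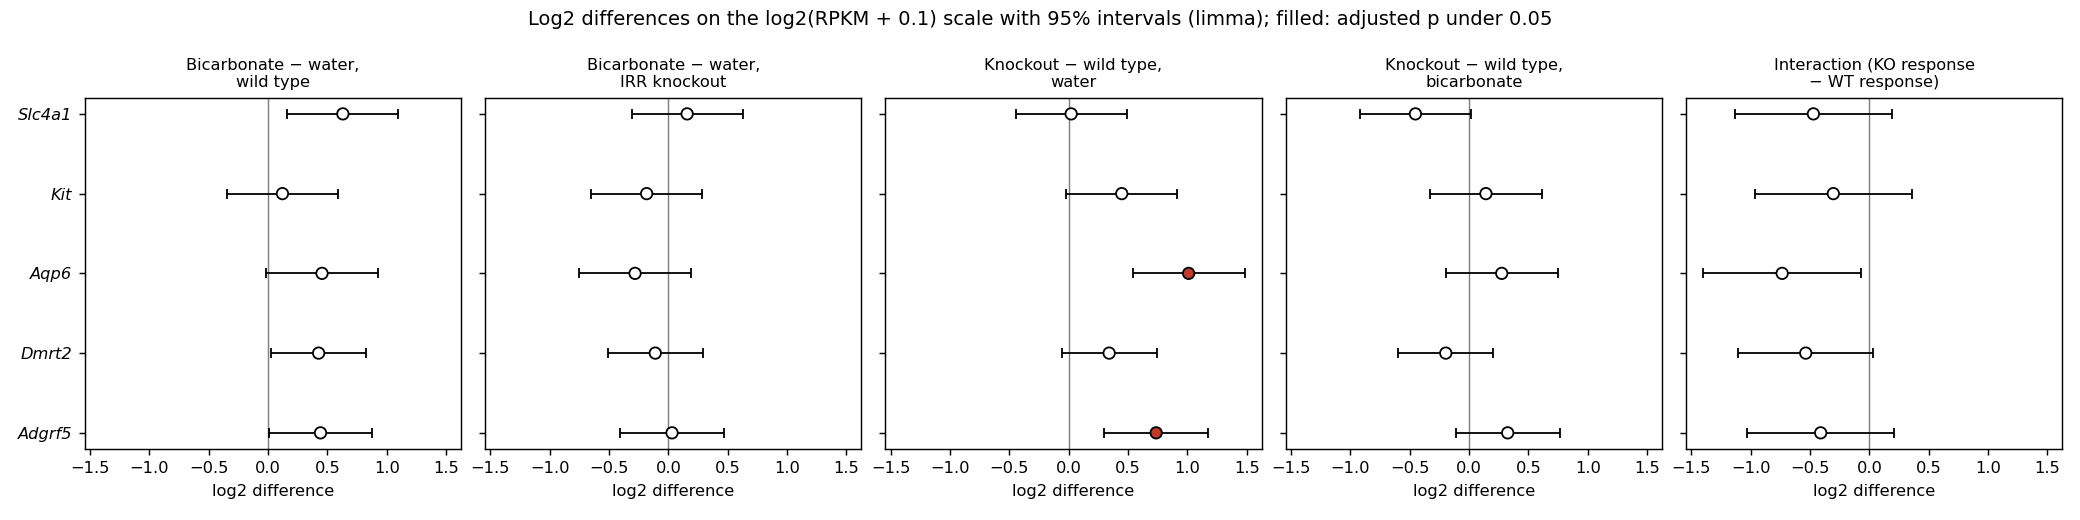
Log2 difference of each type A gene in the 4 comparisons and the interaction, with the 95% confidence interval from limma; filled points passed an adjusted p of 0.05 over all 12943 genes. Only Aqp6 (1.01) and Adgrf5 (0.74) between genotypes on water passed.

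The mice of 1 group were not alike in the type A genes. Deviations from the group means had a Pearson correlation above 0 in all 10 pairs of type A genes, from 0.332 to 0.818, over 16 animals. The share of such pairs among all genes was not computed, so these signs cannot be called particular to the members. Of 40 relations computed, 10 between members and 30 between a member and a marker list, 1 passed, that of Slc4a1 with Aqp6 (r = 0.818, adjusted permutation p = 0.0156; Spearman's rho = 0.774, adjusted permutation p = 0.054). Within the 8 wild-type mice r was 0.848 and within the 8 knockout mice 0.777. Without the 2 animals farthest from the median of Slc4a1, replicate 3 of wild type on bicarbonate and replicate 2 of wild type on water, r was 0.776 and the adjusted permutation p 0.0525.

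Of the 30 relations between a member and a marker list, 0 passed. The largest was r = 0.779 for Slc4a1 with the 14 genes shared by both types of intercalated cell (adjusted permutation p = 0.064). Next were r = -0.763 for Aqp6 with Hdc (adjusted permutation p = 0.092) and r = 0.740 for Dmrt2 with the shared genes (adjusted permutation p = 0.092). Hdc was the only 1 of 8 listed mast cell markers in the table. Its relation with Aqp6 is that of 1 gene and is not read as one with mast cells. Adgrf5 had r = 0.632 with the endothelial list (adjusted permutation p = 0.120), and the part of endothelium in its values was not tested. All relations are over the same 16 slices, in which the share of cortex and medulla was not given in the sources used here.

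**Figure D3:**
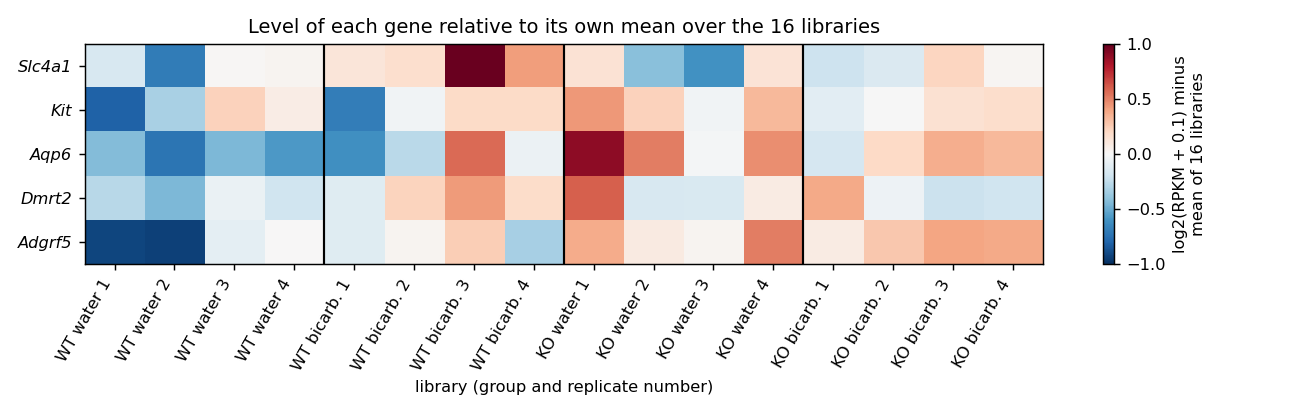
Deviation of each type A gene, in log2(RPKM + 0.1), from its mean over all 16 libraries, 1 column per library in group order; colours run from -1 to 1. Replicate 3 of wild type on bicarbonate is high in Slc4a1 and Aqp6, and is the highest wild-type library in Dmrt2 and Adgrf5 too. Replicates 1 and 2 of wild type on water are low in Adgrf5.

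Over the whole table, the genes with the most similar deviations were listed for each member among the 11857 genes with a mean RPKM of at least 1, as a description with no test. By Pearson correlation Aqp6 was closest to Atp6v1b1, the intercalated cell subunit of the proton pump (r = 0.899), then to Nedd1 (r = 0.862) and Sox12 (r = 0.834). Of these 3, Sox12 had the highest Spearman's rho, 0.838 against 0.794 for Atp6v1b1. Slc4a1 was closest to Hadha (r = 0.888), Acaa1b (r = 0.883) and Hsdl2 (r = 0.874), the first 2 of which encode enzymes of fatty acid oxidation. Adgrf5 was closest to the folate carrier Slc19a1 (r = 0.949) and to Ehhadh (r = 0.946) and Acad11 (r = 0.935), which encode enzymes of fatty acid oxidation. Kit was closest to Zc3h7b (r = 0.924) and to Abcc2 (r = 0.922), an export pump of the proximal tubule, and Dmrt2 to Cc2d1a (r = 0.870). Of the 5 members, only Aqp6 had a gene from the intercalated cell lists among its 3 closest.

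Ehhadh, a peroxisomal enzyme of fatty acid oxidation abundant in the proximal tubule, was at 245, 272, 553 and 530 RPKM in wild type on water. The low pair of mice was the same as for Adgrf5. The other 12 libraries held 449 to 739 RPKM. The genotype difference of Ehhadh on water was 0.53 and did not pass (adjusted p = 0.122 by limma). Its part in the Adgrf5 result was not tested.

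**Figure D4:**
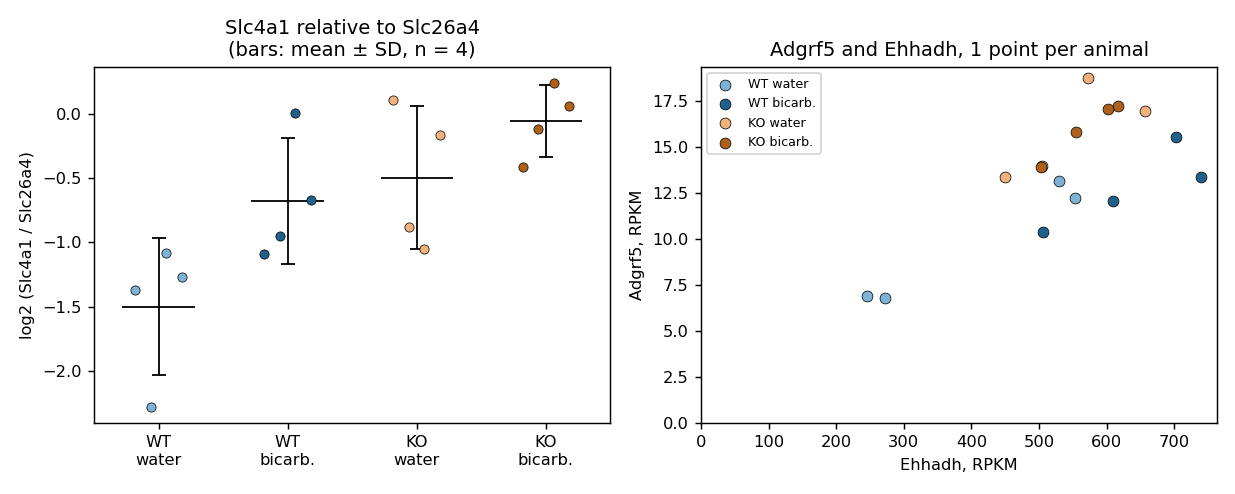
Left, log2 of the ratio of Slc4a1 to Slc26a4 RPKM in the 4 groups, 1 point per mouse with mean and SD (n = 4). Right, Adgrf5 against Ehhadh RPKM in the 16 libraries, where the 2 wild-type mice on water at 245 and 272 RPKM of Ehhadh are also the 2 lowest for Adgrf5.

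The exchangers of the type A and type B cells were set side by side as the ratio of Slc4a1 to Slc26a4. It was 0.385, 0.204, 0.470 and 0.413 in wild type on water and 1.08, 0.541, 0.482 and 0.893 in knockout on water, so that all knockout mice lay above all wild-type mice. It was 0.469, 0.515, 1.01 and 0.628 in wild type on bicarbonate and 0.751, 0.923, 1.19 and 1.05 in knockout on bicarbonate. The log2 ratio was 1.01 higher in the knockout on water, a 2.01-fold difference, with an exact permutation p of 0.0286, the smallest that 4 against 4 allows, and 0.114 adjusted over the 4 comparisons. On bicarbonate it was 0.62 higher (exact permutation p = 0.0857, adjusted 0.114). The response to bicarbonate was 0.83 in wild type (exact permutation p = 0.0571, adjusted 0.114) and 0.44 in the knockout (exact permutation p = 0.229, adjusted 0.229).

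The denominator carried the genotype difference in this ratio on water. Slc26a4 fell from 38.4 ± 5.85 to 19.3 ± 2.51 RPKM (SD, n = 4 in each) on water, by 0.99 on the log2 scale (adjusted p = 2.53e-05 by limma), while Slc4a1 differed by 0.02. On bicarbonate Slc26a4 fell from 33.2 ± 2.23 to 15.7 ± 1.37 RPKM (SD, n = 4 in each), by 1.07 on the log2 scale (adjusted p = 1.78e-05 by limma). Of the 6 type B genes, 5 were tested. On water 2 of the 5 fell in the knockout, Slc26a4 and Insrr, where 21.9% of all genes passed. Insrr is the gene named in the knockout label. Its fall on either drink was set by the choice of animals and is no result about type B genes. On bicarbonate, where 18.4% passed, 3 fell, with Hmx2, a homeobox factor, added, while Slc4a8, a sodium-driven bicarbonate exchanger, rose by 0.58 (adjusted p = 0.0402 by limma). The calls of Slc26a4 on both drinks and of Insrr on water held in 22 of 22 other settings. On bicarbonate the call of Insrr was lost in 3 settings, among them without replicate 4 of wild type (-0.37, adjusted p = 0.0532 by limma) or replicate 2 of the knockout (-0.46, adjusted p = 0.052 by limma). That of Hmx2 was lost in 5, among them without replicate 1 of wild type or replicate 3 or 4 of the knockout (-0.71 to -0.64, adjusted p from 0.0597 to 0.0622 by limma). That of Slc4a8 was lost in 9, among them without any 1 of the 8 mice but replicate 4 of wild type (adjusted p from 0.0513 to 0.116 by limma).

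The 5 other genes listed for acid-secreting intercalated cells (Slc26a7, Slc12a7, P2ry14, Clnk and Hepacam2) gave 0 calls in each of the 5 comparisons. Of all genes, 0.0155% (interaction) to 21.9% (between genotypes on water) passed in these comparisons. Of the 14 genes shared by intercalated cells, 0 passed in either response to bicarbonate or in the interaction. Between genotypes 1 of the 14 passed as higher in the knockout on each drink, against 21.9% of all genes on water and 18.4% on bicarbonate. Differences were above 0 in 9 of the 14 on water and in 3 on bicarbonate. Atp6v1b1 was the closest gene to Aqp6 across animals by Pearson correlation. It was at 50.0 ± 0.399 RPKM in wild type and 47.1 ± 3.66 RPKM in the knockout on water (SD, n = 4 in each). It was not called. Among 10 genes of principal cells, the other cell type of the collecting duct, 2 passed between genotypes on water, both lower in the knockout. On bicarbonate 1 passed as higher and 1 as lower. Of all genes 21.9% passed on water and 18.4% on bicarbonate. Differences were above 0 in 4 of the 10 on water and in 6 on bicarbonate. The water channel gene Aqp4, 1 of the 10, fell by 3.71 on the log2 scale on water (adjusted p = 0.00474 by limma) and by 3.31 on bicarbonate (adjusted p = 0.0115 by limma). The call on bicarbonate was lost with a constant of 0.01 (adjusted p = 0.070 by limma). Aqp4 is listed at 0 RPKM in 2 of the 8 knockout libraries, so its size of change is set by the constant added.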

How the data were processed

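RNA from a kidney slice of each of 16 mice was sequenced as 1 library per animal, 4 per group, with groups read from the labels for genotype and treatment. The authors deposited RPKM per gene for all libraries in a single table. The submitters' processing notes list Salmon 1.5.2, edgeR 3.34.0 and 2 genome builds without a role, and the annotation used is not stated in the labels or the table. Symbols and positions were taken from GENCODE M21 on GRCm38, and promoter windows from RefSeq on GRCm38.p6. Among 931 genes of low mean, at most 3.33% of the ratios between libraries fell in one bin, so whole reads could not be recovered, the depth is unknown and no counting interval is given.

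Genes at 0.5 RPKM or more in at least 4 libraries were tested (12943; 487 set aside) on log2(RPKM + 0.1) by limma 3.58.1 (R 4.3.3) with trended and robust variance, in 1 fit of 4 group means with 12 residual degrees of freedom. Adjusted p values are Benjamini-Hochberg over all genes tested, two-sided, with a threshold of 0.05. The scale understates the change of low genes. The script was tested on simulated data. Ratios were compared by exact permutation tests, and correlations of deviations from group means by 100000 permutations within groups, adjusted over 40 relations.

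The named genes are the 5 members in every comparison, called members of other lists, genes with the most similar deviations, and markers from a fixed set. Some called members of the other lists are counted but not named. The list of Notch and intercalated cell fate held 8 genes. It gave 0 calls in the responses to bicarbonate and between genotypes on water, and 1 on bicarbonate between genotypes. Of 8 proximal tubule genes, 1 rose and 2 fell between genotypes on water and 1 fell on bicarbonate. Of 6 relatives of Adgrf5 and G proteins, 3 were tested with 0 calls, and 13 of 13 mitochondrially encoded genes rose in the knockout on both drinks. Beside these counts, 21.9% of all genes passed between genotypes on water and 18.4% on bicarbonate. In the responses to bicarbonate 0.139% passed in wild type and 0.0232% in the knockout. A result for 1 listed gene is not reported here. The members and lists were chosen with earlier results of these data known. Alternatives covered the constant, the filter, the normalization, the variance model, the replicate block and each replicate left out. The scalings relative to marker lists were added after seeing the data. Over all genes tested, samples of the same replicate number in different groups showed little common deviation (24 pairs, r from -0.0975 to 0.105). The numbers were therefore not taken to pair the animals. This check cannot exclude a pairing that touches few genes.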

Additional observations from a re-analysis of the deposited data

Results flagged for a closer look

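None of the 5 type A genes had a library that stood apart from its group by Dixon's criterion. Of 84 groups examined, 21 genes and ratios in 4 groups each, 5 held such a library, where chance alone gives about 1 in 20. Slc26a4 was 17.8 RPKM in replicate 1 of knockout on bicarbonate against 14.9 to 15.1 in the other 3. Hmx2 was 3.04 RPKM in replicate 1 of knockout on water against 3.60 to 3.69. Kitl was 4.14 RPKM in replicate 4 of knockout on water against 3.75 to 3.78. Grb2 was 31.4 RPKM in replicate 3 of wild type on bicarbonate against 23.5 to 23.9, and Gab2 was 5.22 RPKM in replicate 1 of knockout on bicarbonate against 6.41 to 6.65.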

How the results depend on the processing

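The depth of the libraries is unknown, and 4 mice per group limit the precision. The count of type A genes past the threshold between genotypes on water, 2, was 1 when only the groups compared were fitted and 1 to 2 with 1 animal left out. On bicarbonate the count of 0 became 1 relative to the endothelial list (Slc4a1, -0.64, adjusted p = 0.0294 by limma). With the replicate number as a block the counts of type A genes past the threshold were 2 between genotypes on water and 0 in the other comparisons, so the block changed no call of a type A gene. With it the fall of Kitl on bicarbonate had an adjusted p of 0.0566 by limma. Of the 40 relations 1 passed, that of Slc4a1 with Aqp6, and 0 passed by Spearman's rho. With the replicate block 2 passed, Slc4a1 with Aqp6 and Kit with Dmrt2 (adjusted permutation p = 0.0304 and 0.008). Without the 2 animals farthest from the median of the first gene named, 3 other relations passed. These were Slc4a1 with Kit and Kit with Aqp6 (adjusted permutation p = 0.009 for each) and Dmrt2 with the shared intercalated list (adjusted permutation p = 0.0268). That of Slc4a1 with Aqp6 did not pass there (adjusted permutation p = 0.0525).

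Small differences changed sign. That of Slc4a1 between genotypes on water was -0.078 with an equal sum of nuclear RPKM, -0.017 with the length and GC trend removed, -0.015 with array weights, -0.071 relative to the shared intercalated list, -0.12 relative to the endothelial list, and -0.14 to 0.16 with 1 animal left out. The knockout response of Adgrf5 was -0.040 with the length and GC trend removed, -0.037 relative to the endothelial list and -0.045 to 0.12 with 1 animal left out, and that of Dmrt2 was 0.027 relative to the shared intercalated list and -0.24 to 0.057 with 1 animal left out. The response of Kit in wild type was -0.078 to 0.32 with 1 animal left out. Its genotype difference on bicarbonate was -0.048 relative to the endothelial list and -0.059 to 0.23 with 1 animal left out. The cause of these changes was not tested. The rise of Aqp6 on water kept its call in 22 of 22 settings.

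For the responses to bicarbonate and the interaction, the number of all genes past the threshold moved by more than 1.5 times in some settings. It was 18 in the wild-type response, with 2 to 82 with 1 animal left out and 2 to 34 in other settings. It was 3 in the knockout response (1 to 6) and 2 for the interaction (0 to 5). Between genotypes it was 2833 on water and 2381 on bicarbonate (1748 to 3493 in all settings of both). These 2 counts stayed within 1.5 times in 22 of 22 settings. Scaling to a list moved the median of all genes by over 0.1: to the shared intercalated list it was 0.15 in the knockout response and 0.20 for the interaction, and to the endothelial list -0.19 between genotypes on water and -0.21 on bicarbonate.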
